A study of Mus musculus with 10 samples.

Results

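The cytosolic ribosome is built from 4 ribosomal RNAs and a fixed set of proteins, and the genes of these proteins were followed here in RNA-seq of mouse right atria. A gene was taken as a member when its symbol in the deposited table had the form Rpl or Rps with a number and at most one letter a, l or x, was Rplp0, Rplp1 or Rplp2, or was Rpsa. This rule, which uses names only, found 81 of the 23337 genes of the table, 49 of the large and 32 of the small subunit, and 59 of the 81 had enough reads to be tested. In the mice labelled Tbx5 mutant 23 members (39.0%) rose at an adjusted p under 0.05 and 0 fell, against 16.3% and 15.0% of all tested genes. Most of the 23 rose by less than 1.5-fold. Once each library's trend on transcript length had been taken out, 6 (10.2%) rose and 1 fell, against 14.9% and 12.8% of all tested genes.

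Apart from the acidic stalk proteins, ribosomal proteins are present in equal numbers in a ribosome, and their mRNAs are among the most abundant of most cells. Many of these mRNAs begin with a C followed by a run of pyrimidines, the 5′ terminal oligopyrimidine tract, through which the growth-sensing kinase mTORC1 and the binding protein Larp1 govern their translation. Striated muscle has a form of its own of one protein: Rpl3l stands in for Rpl3 in heart and skeletal muscle. The mouse genome also carries a great many processed pseudogenes of these genes, which are copies of the mRNA without introns and can share its reads.

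RNA was sequenced from the right atria of 4 mice labelled control and 6 mice whose labelled genotype is removal of TBX5, the T-box transcription factor of the heart, by R26Cre. The labels call the strain mix, and the control genotype is given as Control with no alleles named. One treatment text stands for both groups, in which 0.167 mg of tamoxifen a day for 3 days switched on a Cre made in all tissues from R26, to remove Tbx5 exon 3, with death 1 week after. The age is 8 to 10 weeks in one field and 6 to 8 weeks in another, and both an mRNA kit and ribosomal RNA removal from total RNA are described, after globin RNA removal. The labels number the mice M1, M2, F1 and F2 in the control group and F1 to F3 and M1 to M3 in the other, with the letter for the labelled sex.

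Several libraries stood apart from their labels. Tbx5 had 205 ± 17.8 CPM (CPM, counts scaled to 1e6 per library, SD, n = 4) in the control mice and 394 ± 83.3 (n = 6) in the mice labelled Tbx5 mutant, with a log2 fold change of 0.94 and an adjusted p of 0.000495 (quasi-likelihood test of edgeR, adjusted by Benjamini-Hochberg over all tested genes). This went against the label, and since only exon 3 was targeted the count of the whole gene does not check the excision, so every direction below is relative to the label. Xist and the Y-linked Ddx3y did not match the labelled sex of the 4 controls. Rn45s, the ribosomal RNA precursor, took 38.9% of the counts of mutant M3 and at most 1.49% of any other library, so counts of calls without mutant M3 are given as well. Library totals ran from 5703775 to 7095141 counts, and the atrial marker Nppa was at 26827 CPM in the control mice and 17114 CPM in the mice labelled Tbx5 mutant.

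How far a read from coding sequence could be assigned to one member was judged from sequence, without use of the counts. Windows outside the coding sequence were not searched. Each 50-base window of a member's annotated coding sequence was searched for in all other genes of GENCODE M21, and 29 of the 81 members had an exact copy of every window elsewhere. With up to 2 mismatches allowed, 61 of the 81 had a copy of every window. Rpl3l and Rpl39l had no exact copy of any window elsewhere. The median share of copied windows over the members was 90.3%, and 95.6% of the genes holding a copy were annotated as pseudogenes. Rpl7a windows were found in 123 other genes, and Rps2 windows in 71. Paralogue pairs show how far such copies can be told from the common form. The stretches of 60 bases that are most alike between Rpl3 and Rpl3l and between Rps27 and Rps27l are printed below 5′ to 3′ on the coding strand, from GENCODE M21 on GRCm38, with the differing bases in capitals.
Rpl3 (chr15:80080475-80080534, reverse strand, exon 5): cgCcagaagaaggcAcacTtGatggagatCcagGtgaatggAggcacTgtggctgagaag
Rpl3l (chr17:24733327-24733386, forward strand, exon 5): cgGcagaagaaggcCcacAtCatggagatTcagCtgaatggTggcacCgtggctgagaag
Rps27 (chr3:90213209-90213268, reverse strand, exon 2): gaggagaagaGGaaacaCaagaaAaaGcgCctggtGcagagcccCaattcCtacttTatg
Rps27l (chr9:66946864-66946923, forward strand, exon 2): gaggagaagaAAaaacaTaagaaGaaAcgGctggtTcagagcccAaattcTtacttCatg

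Rpl3 and Rpl3l were the same at 74.1% of 1206 aligned coding bases and differed at 8 bases even in this stretch. Rps27 and Rps27l were the same at 76.2% of 252 bases. Rpl39 and Rpl39l (85.0%) and Rpl10 and Rpl10l (84.7%) were closer. No window of Rpl3l had a copy elsewhere with up to 2 mismatches, whereas 27 of the 104 Rpl39l windows, 64.5% of the Rps27l windows and 90.1% of the Rpl10l windows did. All 203 windows of Rps27 had an exact copy in another gene, and 98 of the 203 windows of Rps27l did.

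The level counted for a member followed this property. Rps3, with 8.09% of windows copied, was counted at 566 CPM per kilobase of coding sequence over the 10 libraries, and Rpl8 (8.73%) at 513. Rps27 (100%) was at 2.88 CPM per kilobase, Rpl38 (100%) at 3.33 and Rps6 (100%), the substrate of the S6 kinases, at 5.93. Over the 81 members the Spearman correlation of the copied share with the level per kilobase was -0.58, a description over genes that share libraries and annotation. The median level per kilobase was 224 CPM in the 15 members with under 50% of windows copied, 27.7 CPM in the 37 with 50% to under 100%, and 3.33 CPM in the 29 with all windows copied. A member's count is therefore not read here as the amount of its mRNA, and levels are not ranked between members.

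**Figure D1:**
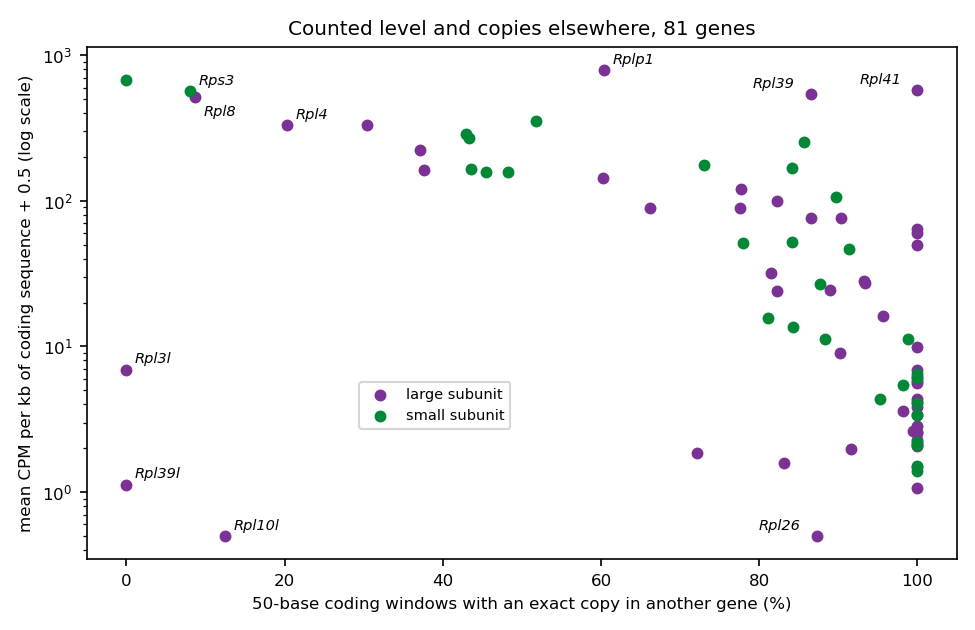
Each point is 1 of the 81 genes, with the share of its 50-base coding windows that have an exact copy in another gene on the x axis (%) and the mean CPM per kilobase of coding sequence plus 0.5 on a log axis (y). Rps3 and Rpl8, with few copies, sit at 566 and 513, while Rpl3l, Rpl39l and Rpl10l, with few or none, sit under 10. Most genes with all windows copied also sit under 10, with Rpl41 far above them.

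The exceptions lay on both sides. Rpl41, the shortest member, had all its windows copied and was still at 572 CPM per kilobase, over a coding sequence of only 75 bases. Rplp1, an acidic stalk protein, was at 788 CPM per kilobase with 60.4% of windows copied. Rpl3l and the testis paralogues Rpl39l and Rpl10l had few or no copies and low levels, with 6.42 CPM per kilobase for Rpl3l, at most 4 reads in any library for Rpl39l and 0 for Rpl10l. Rpl10l and Rpl26 were listed at 0 in all 10 libraries, although Rpl26 is a protein of every ribosome, so that a 0 in this table does not show that a gene is silent. The 22 members that were not tested had at most 16 reads in any library, and 14 of the 22 had all windows copied.

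Reads were spread unevenly over the members. Rpl4 had 10.3% of all counts on the 81 genes, Rps3 10.1%, Rpl8 9.74% and Rplp1 6.56%. These 4 were named after their counts had been seen. The 6 rows named as pseudogenes of a member had from 0 to 12 reads in any library. Pseudogenes holding a copied window numbered 1077 when counted member by member. These 6 rows therefore do not show how many reads pseudogenes took.

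Summed over the 81 genes, ribosomal protein reads took a larger share in the mice labelled Tbx5 mutant. The share of counts outside Rn45s was 0.348% in control M1, 0.368% in M2, 0.323% in F1 and 0.3984% in F2. In the mice labelled Tbx5 mutant it was 0.410% in F1, 0.467% in F2, 0.461% in F3, 0.3975% in M1, 0.560% in M2 and 0.573% in M3. The groups overlapped at 1 pair, since mutant M1 lay just under control F2, and the means were 0.359% ± 0.0319 (SD, n = 4) and 0.478% ± 0.0739 (n = 6), or 0.459% ± 0.0642 (n = 5) without mutant M3. The difference exceeded the SD of either group. Mutants M2 and M3 were the highest, and they were also the libraries that most favoured short transcripts: over all tested genes, the Spearman coefficient of a library's deviations with transcript length was -0.345 in M2 and -0.380 in M3, while the other 4 mice with that label had -0.198 to 0.0429 and the controls 0.124 to 0.330. The 59 tested members had a median longest transcript of 1151 bases, against 3469 for all tested genes with an annotated length.

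**Figure D2:**
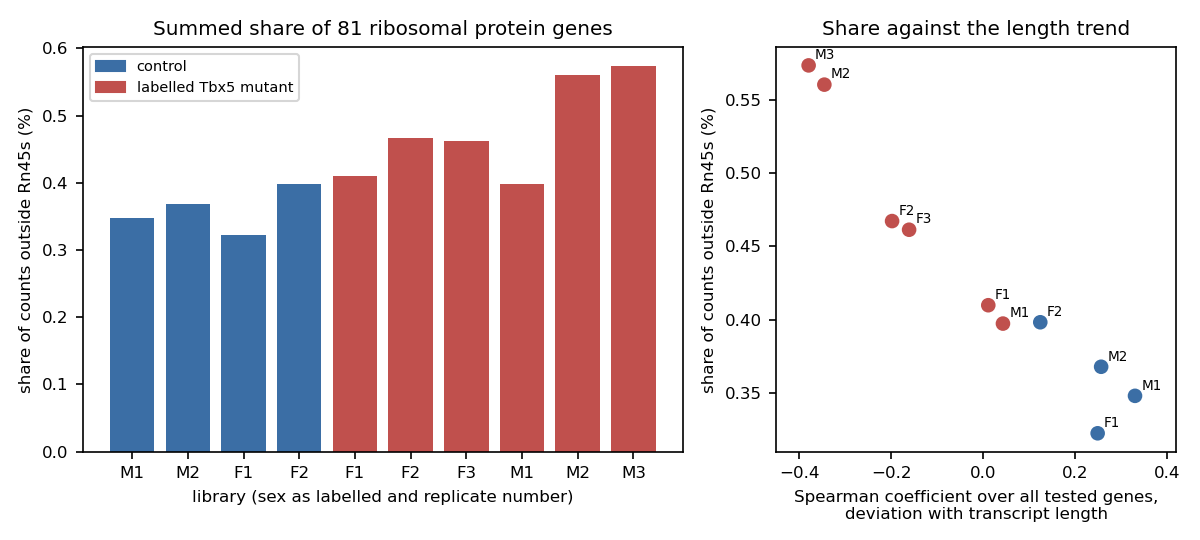
Left, bars from 0 give the summed share of the 81 genes in the counts outside Rn45s (%) for each library, by labelled sex and number. Right, the same share is set against the Spearman coefficient of that library's deviations with transcript length over all tested genes. The libraries with the most negative coefficients, mutants M2 and M3, have the highest shares, and the 4 controls, all above 0.1 on the x axis, have shares under 0.4%.

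Gene by gene, 23 of the 59 tested members were higher in the mice labelled Tbx5 mutant at an adjusted p under 0.05 and 0 were lower, where 16.3% of all tested genes were higher and 15.0% lower. Of the 59 log2 fold changes, 55 were above 0. The median log2 fold change of the members was 0.34 and that of all tested genes was -0.0050. After each library's trend on transcript length was removed, 6 members were higher and 1 lower, against 14.9% and 12.8% of all tested genes, and the median of the members was 0.14 with 42 of 59 above 0. So 39.0% of the members against a background of 16.3% became 10.2% against 14.9%, and the higher calls of the family at large did not outlast this correction. The length coefficients themselves split by label, from 0.124 to 0.330 in the controls and -0.380 to 0.0429 under the mutant label. The correction thus also takes out any group difference that goes with length. A trend of the libraries and a change of short genes with the label cannot be told apart here. Removing the trend on GC content left 22 members higher and a median of 0.33. Without mutant M3 15 members were higher (25.9%, against 14.5% of all tested genes), and Rpl13a, Rpl22, Rplp1, Rps9 and Rps20 were among those that no longer passed, with adjusted p of 0.0539 to 0.0758 (edgeR). Without both M2 and M3 9 were higher (15.5% against 12.2%), without control F1 8 (13.1% against 12.3%), without control M1 13 of 59 (against 13.5%) and without control M2 14 (23.0% against 14.0%). For 12 members every mouse labelled Tbx5 mutant lay above every control and for 0 below, where 11.7% and 11.0% of all tested genes did so.

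**Figure D3:**
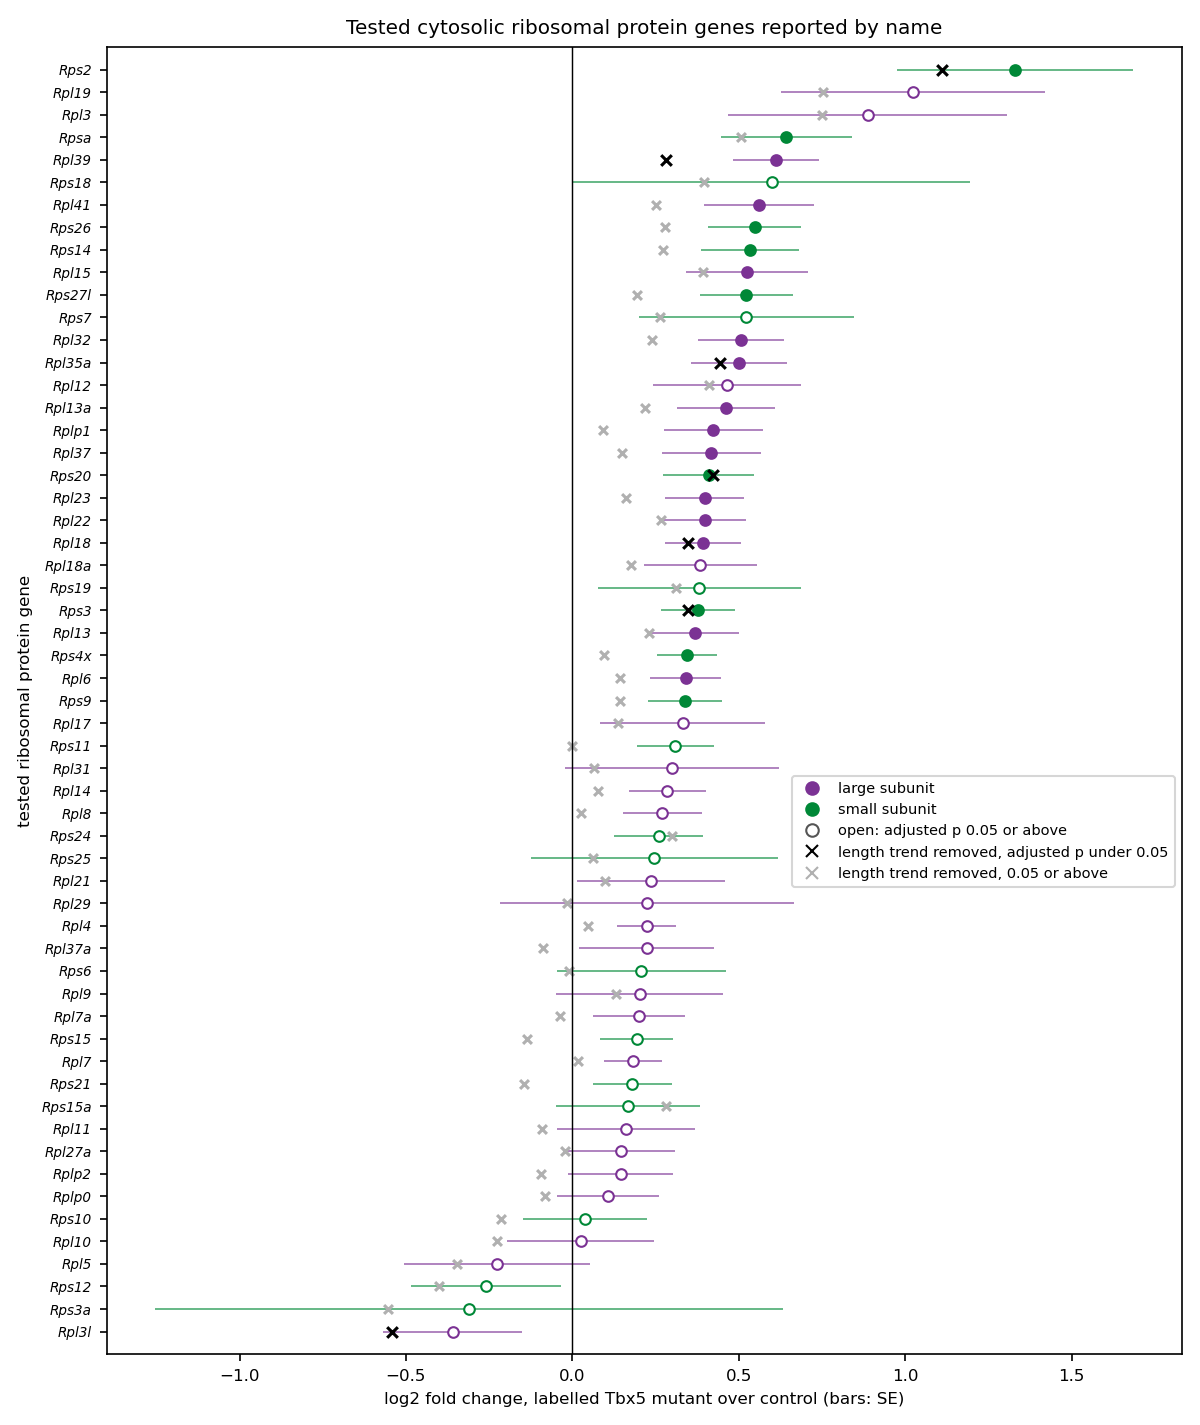
Points give the log2 fold change of 57 of the 59 tested members, labelled Tbx5 mutant over control, with bars for the SE. Filled points are at an adjusted p under 0.05, colours separate large and small subunit, and crosses give the value with the length trend removed (black where its adjusted p is under 0.05). Nearly all crosses lie to the left of their points, and 6 black crosses remain on the right side of 0 and 1, of Rpl3l, on the left.

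With a fold change over 1.5 and a control signal over 1 added to the adjusted p, 3 members were higher and 0 lower, where 8.50% of all tested genes were higher and 7.16% lower. They were Rps2, Rpsa and Rpl39. The number was 6 without control F2, mutant F1 or mutant F2, and 5 without mutant F3. Rps2, a protein at the mRNA entrance of the small subunit, had 4.14, 26.5, 35.3 and 29.8 CPM in controls M1, M2, F1 and F2. In the mice labelled Tbx5 mutant it had 54.4, 54.1 and 58.1 CPM in F1 to F3 and 49.4, 64.9 and 80.3 CPM in M1 to M3. The groups did not overlap, and control M1 with 29 reads lay far under the other controls. The log2 fold change was 1.33 ± 0.36 (SE, adjusted p = 0.0121, edgeR), and 1.11 with the length trend removed (adjusted p = 0.0228). Rps2 lies on chromosome 17 from 24718116 to 24721929 and has copies of 84.1% of its windows elsewhere.

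Rpl39, the smallest protein of the exit tunnel, was at 62.7 ± 4.32 CPM (SD, n = 4) in the controls and rose to 96.0 ± 18.7 (n = 6). The control values were 58.6, 60.7, 62.7 and 68.6 CPM, and the values under the mutant label were 87.9, 86.1, 81.4, 81.4, 115 and 125 CPM, the last 2 in mutants M2 and M3. The log2 fold change was 0.61 ± 0.13 (SE, adjusted p = 0.00318, edgeR), 0.53 without mutant M3 and 0.28 with the length trend removed (adjusted p = 0.0263). Rpl39 and Rps2 were under 0.05 in each of the 30 alternative fits, with adjusted p up to 0.0476 and 0.0466.

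Rpsa, the laminin receptor form of the small subunit protein uS2, had 8.14, 6.62, 5.96 and 7.85 CPM in the controls. In the mice labelled Tbx5 mutant it had 11.5, 9.60 and 9.76 CPM in F1 to F3 and 9.09, 17.3 and 9.53 CPM in M1 to M3. All values under the mutant label lay above all controls, with mutant M2 well above the rest. Its log2 fold change was 0.64 ± 0.20 (SE, adjusted p = 0.0237, edgeR) and 0.51 after length correction (adjusted p = 0.0602). Only 10 of its 836 windows were its own.

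The next largest rises under the rule for named genes were Rpl41, Rps26 and Rps14. Rps26, which lies beside the mRNA exit, had 43.4 to 52.8 CPM in the controls and 56.2 to 95.1 under the mutant label, without overlap. Its log2 fold change was 0.55 (SE 0.14, adjusted p = 0.00928, edgeR) and 0.28 after length correction (adjusted p = 0.0625). Rps14, a platform protein of the small subunit, had 113 to 135 CPM and 143 to 254 CPM, and its log2 fold change of 0.53 (adjusted p = 0.0142, edgeR) became 0.27 (adjusted p = 0.0596). Rpl41 overlapped between the groups, with 25.6 to 38.9 CPM against 37.1 to 67.4 CPM.

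The 6 members still higher with the length trend removed were Rps2, Rpl39, Rps3, Rps20, Rpl18 and Rpl35a, the last 4 named after their values had been seen. Rps3, a protein of the mRNA entrance that also takes part in DNA repair, is the best counted of them. It had 349, 346, 328 and 377 CPM in the controls, and 412, 429, 417, 409, 498 and 564 CPM in the mice labelled Tbx5 mutant. The groups did not overlap, and the log2 fold change was 0.38 ± 0.11 (SE, adjusted p = 0.0191, edgeR) before and 0.35 (adjusted p = 0.0234) after correction. Rps20 and Rpl18 overlapped between the groups, and Rpl35a, at 6.16 ± 0.51 and 8.74 ± 1.06 CPM, did not. The length correction took the longest annotated transcript of each gene, at a median of 1151 bases over the tested members. The principal coding transcripts of Rps20, Rpl18 and Rps3 had 3706, 2989 and 1908 bases, and those of Rps2, Rpl39 and Rpl35a 1094, 612 and 519. Rps20 was at 0.41 before and 0.42 after correction. The part of the annotated length in which members stayed higher was not tested.

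Members with reads of their own gave no other picture of the size of the change. Of the 13 tested members with under 50% of windows copied, 7 were higher at a median log2 fold change of 0.34, and 1 was higher and 1 lower after length correction, where the median was 0.14. Of the 15 tested members with all windows copied 3 were higher at a median of 0.24, and of the 31 between 13 were higher at 0.38. Rpl4 was at 379 ± 18.3 and 443 ± 31.5 CPM, and while its groups did not overlap its log2 fold change was 0.22 (adjusted p = 0.0707, edgeR).

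Large and small subunit genes had like medians. Of 35 tested large subunit genes 13 (37.1%) were higher at a median log2 fold change of 0.33, and of 24 small subunit genes 10 (41.7%) were higher at 0.34. Of all tested genes 16.3% were higher. The ratio of summed large to summed small subunit counts lay between 1.19 and 1.22 in the 4 controls. It was 1.10 to 1.18 in 5 of the 6 mice labelled Tbx5 mutant, below every control, and 1.216 in mutant F1, and this difference was not tested. The stalk proteins bring elongation factors to the ribosome. Rplp1 had a log2 fold change of 0.42 (adjusted p = 0.0439, edgeR), or 0.091 with the length trend removed (adjusted p = 0.474). Rplp0 was at 0.11 and Rplp2 at 0.14, neither past the test, and the difference between the 3 was not tested. Rplp0, often used as a reference gene, had 98.3 and 102 CPM in controls M1 and M2, 150 and 173 in F1 and F2 and 124 to 166 under the mutant label. Of the members that restrain Mdm2 when ribosome assembly fails, Rpl5 had 6 to 17 reads and Rpl11 11 to 21 reads per library, with log2 fold changes of -0.23 and 0.16 that did not pass the test.

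Other paralogues were counted as well. Rps4x, the X-linked form of a small subunit protein, had 61.8 to 79.2 CPM in the controls and 86.5 to 99.6 under the mutant label without overlap. Its log2 fold change was 0.34 ± 0.090 (SE, adjusted p = 0.0107, edgeR) and 0.095 with the length trend removed (adjusted p = 0.487). Rps27l, a p53-responsive paralogue, rose by a log2 fold change of 0.52 (adjusted p = 0.0123, edgeR), or 0.19 after correction (adjusted p = 0.108), while Rps27 had too few reads to be tested. Rpl22, an RNA-binding protein with a role in lymphocytes, rose by 0.40 on the log2 scale (adjusted p = 0.0253, edgeR), or 0.27 after correction (adjusted p = 0.0857). Rps19 and Rpl10 had log2 fold changes of 0.38 and 0.025 with adjusted p of 0.361 and 0.975 (edgeR), and Rpl38, Rpl39l, Rpl10l and Rps27a were not tested.

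Rpl3l, the striated muscle form, went the other way from most members. It had 5.72, 10.8, 8.78 and 10.96 CPM in controls M1, M2, F1 and F2, and 6.47, 5.33, 8.50, 5.66, 9.17 and 7.08 CPM in mutants F1 to F3 and M1 to M3. The groups overlapped, with a log2 fold change of -0.36 ± 0.21 (SE, adjusted p = 0.207, edgeR), and with the length trend removed it was -0.54 (adjusted p = 0.0468). Rpl3 had 11.9, 13.6, 9.56 and 14.5 CPM in the controls and 24.8, 28.2, 29.0, 15.4, 3.35 and 38.9 CPM in the mice labelled Tbx5 mutant, so that 5 of 6 lay above every control and mutant M2, with 23 reads, below all. Its log2 fold change of 0.89 had an SE of 0.42 and an adjusted p of 0.121 (edgeR). Rpl3 had exact copies of 95.7% of its windows elsewhere and Rpl3l of 0%, so their ratio is not read as a ratio of mRNA amounts. The part of the copies in the spread of Rpl3 was not tested. The log2 ratio of Rpl3l to Rpl3 counts averaged -0.47 ± 0.40 (SD, n = 4) in the controls and -1.42 ± 1.45 (n = 6) in the mice labelled Tbx5 mutant, a difference of -0.94 that did not pass a two-sided exact permutation test (p = 0.257). Mutant M2 decided this: without it the difference was -1.515 (exact permutation p = 0.00794). Mutant M2 was singled out after its value had been seen. With it left out the groups no longer overlap, so this p is the smallest the test can give, and nothing is drawn from it.

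**Figure D4:**
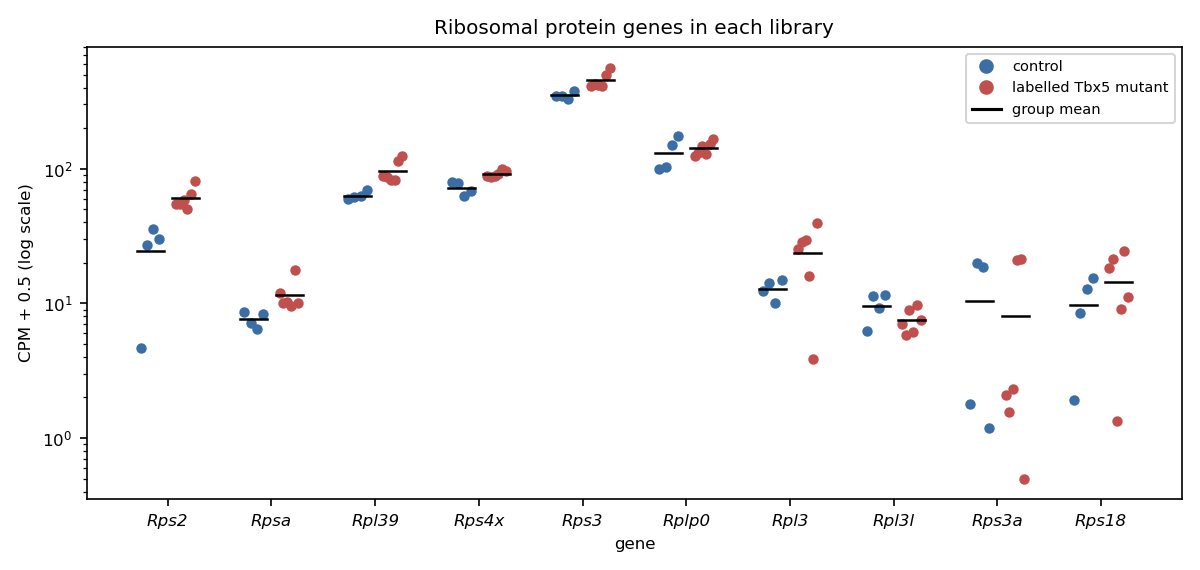
Each point is the CPM plus 0.5 of 1 library on a log axis, for 10 members, with controls and mice labelled Tbx5 mutant side by side and black lines at the group means. Rps2, Rpsa, Rpl39, Rps4x and Rps3 do not overlap between groups, whereas Rps3a and Rps18 spread widely within both groups.

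Some members varied between mice far more than between the groups. Rps3a, a small subunit protein, had 117 and 116 reads in controls M2 and F1 and 119 and 143 in mutants M1 and M2, but only 9 and 5 in controls M1 and F2 and 0 to 13 in the remaining 4 with the mutant label. Rps18, a protein of the small subunit head, had 10 to 111 reads in the controls and 6 to 166 under the mutant label. Neither passed the test between the groups, with adjusted p of 0.826 and 0.471 (edgeR). Both genes have copies of over 85% of their windows elsewhere, the strain is labelled mix, and the part of either in this spread was not tested.

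The members were not alone in their shift, since other families of short housekeeping genes had like values. Of 74 tested mitochondrial ribosomal protein genes 33 were higher and 1 lower at a median log2 fold change of 0.33, of 84 respiratory chain and ATP synthase genes 44 were higher and 0 lower at 0.36, and of 47 proteasome genes 27 were higher and 0 lower at 0.35. The shares higher were 44.6%, 52.4% and 57.45%, against 16.3% of all tested genes. After length correction the medians were 0.20, 0.16 and 0.12, and 19, 20 and 15 of them were higher, or 25.7%, 23.8% and 31.9% against 14.9% of all tested genes and 10.2% of the cytosolic members. Without mutant M3 23, 32 and 21 were higher. The median longest transcripts were 1806, 1186 and 1883 bases, all shorter than that of all tested genes. No difference between these families was tested.

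**Figure D5:**
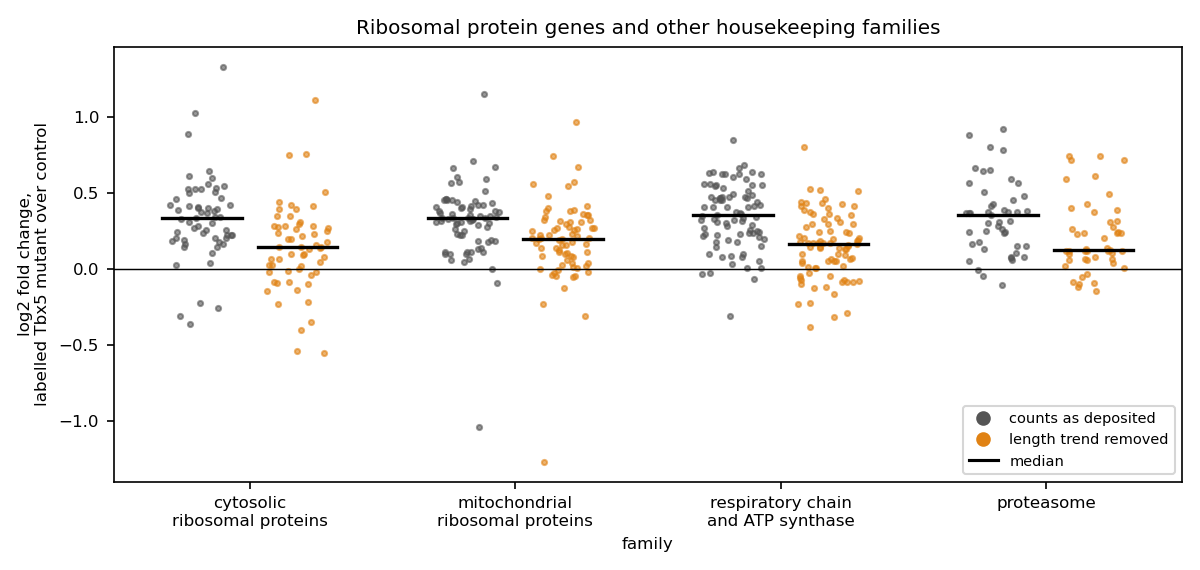
Points are the log2 fold changes of the tested genes of 4 families, from the counts as deposited (grey) and with the length trend removed (orange), with medians as black lines. The 4 medians lie between 0.33 and 0.36 before and between 0.12 and 0.20 after the correction.

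Genes around the ribosome moved in part. Of 123 tested genes on 7 lists of the translation pathway, 29 were higher and 5 lower (23.6% and 4.07%, against 16.3% and 15.0% of all tested genes), and 25 were higher and 6 lower after length correction. Without mutant M3 21 were higher and 5 lower, without control M2 18 were higher, and without mutant F1 8 were lower. The other ribosomal proteins and paralogues had 3 of 4 higher, with Rpl7l1 at a log2 fold change of 0.40, Rpl36al at 0.43 and Gnb2l1, the small subunit scaffold Rack1, at 0.43 (adjusted p from 0.00339 to 0.0191, edgeR), of which Rpl36al was at 0.23 after length correction (adjusted p = 0.168). Of 7 elongation factors 3 (42.9%) were higher (Eef1b2, Eef1g and Eif5a, at 0.29 to 0.35), and 0 after correction. Of 10 other mRNAs with a pyrimidine tract 2 were higher, Eif3e and Btf3. Of 32 initiation factors 8 were higher and 3 lower. Eif1ax and Eif4a1, the start codon scanning factor and the RNA helicase, rose by 0.56 and 0.60, and Eif5, Eif4g2 and Eif5b were lower at -0.50, -0.46 and -0.47. After length correction Eif5 was at -0.46 (adjusted p = 0.000439, edgeR), and Eif4g2 and Eif5b, at -0.23 and -0.26, did not pass (adjusted p of 0.0943 and 0.0678).

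Of 37 ribosome biogenesis genes 10 were higher and 0 lower (27.0% and 0%, against 16.3% and 15.0% of all tested genes). After length correction 11 were higher and 0 lower, with 7 genes higher in both. Without mutant M3 7 were higher. Nhp2, a box H/ACA snoRNP protein, was at 8.54 ± 0.84 CPM in the controls and 15.1 ± 2.95 in the mice labelled Tbx5 mutant (log2 fold change 0.81, adjusted p = 0.00191, edgeR). Nip7 and Nop56 rose by 0.61 and 0.52. Of 15 RNA polymerase I genes 0 were called in either direction by edgeR, with 1 higher and 1 lower after length correction. Among 23 regulators 4 were higher and 2 lower (17.4% and 8.70%, against 16.3% and 15.0% of all tested genes). Their median log2 fold change was -0.067. Myc, which drives ribosome production, was at 1.45 ± 0.53 and 5.58 ± 1.31 CPM (log2 fold change 1.93, adjusted p = 0.000175, edgeR), Mycn at 1.08 ± 0.24 and 4.06 ± 0.96 CPM, and Eif4ebp1, the mTORC1 target that holds back Eif4e, rose by 0.53. Larp1 and Tsc1, which restrain translation of these mRNAs and mTORC1, were lower at -0.28 and -0.44, and Larp1 was at -0.099 after correction (adjusted p = 0.381).

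Markers of other cells and of dividing cells moved with the same labels, where 16.3% of all tested genes were higher and 15.0% lower. All 12 proliferation genes were higher, and their summed level was 41.7 to 64.9 CPM in the controls and 134 to 339 under the mutant label. Of 7 tested leukocyte markers 6 were higher, with a list sum of 417 to 652 and 691 to 1033 CPM, while the defining T cell gene Cd3e had 0 to 4 reads. Of 8 fibroblast markers 4 were higher and 1 lower (3872 to 5205 and 7073 to 10270 CPM), of 7 smooth muscle markers 4 were higher (299 to 363 and 379 to 846 CPM), and of 7 endothelial markers 1 was. Of 9 atrial cardiomyocyte markers 6 were lower and 2 higher. Of 3 tested ventricular cardiomyocyte markers 2 were higher, with a list sum of 189 to 294 CPM in the controls and 785 to 1586 under the mutant label, and Myl3, the ventricular essential light chain, was at 45.4 ± 9.11 and 688 ± 109 CPM. The globin genes Hba-a1, Hba-a2, Hbb-b1 and Hbb-b2 were listed at 0 in all libraries. Alas2, the 1 tested gene of the erythroid list, was at 11.8 ± 2.07 CPM in the controls and 24.6 ± 12.0 under the mutant label. Its log2 fold change was 1.05 (adjusted p = 0.0285, edgeR), and 0.92 after length correction (adjusted p = 0.0482). In whole tissue, a change in the number of cells of a type and a change in the RNA per cell cannot be told apart. The part of these cells in the ribosomal protein counts was not tested.

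The pyrimidine tract was looked for in the promoters. RefSeq windows of GRCm38.p6, from 250 bases before to 50 after the annotated start, were at hand for 61 members. A C followed by at least 6 bases that are each C or T, with the C within 5 bases of the start on the sense strand, was found in 22 of the 61 (36.1%) and in 7.64% of all 27025 genes. On the other strand the same letters were found in 4 of the 61 (6.56%) and in 9.37% of all genes. Of the 18 members with a window that rose at an adjusted p under 0.05, 6 held it. The best counted tested members that held it are shown with 25 bases on each side of the start, with the pyrimidine run that holds the match in capitals, together with the muscle form Rpl3l, which holds none there.
Rps9 (chr7:3704016-3704066, forward strand): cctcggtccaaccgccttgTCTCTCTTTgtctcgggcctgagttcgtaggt
Rpl13a (chr7:45128720-45128770, reverse strand): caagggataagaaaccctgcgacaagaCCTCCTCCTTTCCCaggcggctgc
Rpl14 (chr9:120571492-120571542, forward strand): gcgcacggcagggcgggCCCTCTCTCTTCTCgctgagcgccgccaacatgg
Rps15a (chr7:118116122-118116172, reverse strand): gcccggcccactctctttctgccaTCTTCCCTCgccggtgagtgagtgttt
Rps26 (chr10:128626481-128626531, reverse strand): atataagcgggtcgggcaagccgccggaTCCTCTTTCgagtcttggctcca
Rpl3l (chr17:24727801-24727851, forward strand): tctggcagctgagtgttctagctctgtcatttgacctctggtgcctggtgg

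These letters are a description of the annotated start, which can lie some bases from the start in use, and say nothing of translation. Of the 5 common members shown, Rps9, Rpl13a and Rps26 rose, with log2 fold changes of 0.34, 0.46 and 0.55, and Rpl14 and Rps15a, at 0.28 and 0.17, did not pass the test (adjusted p of 0.0741 and 0.588, edgeR).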

How the data were processed

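Right atrial RNA-seq of 10 mice was analysed from 1 deposited table. The submitters' processing notes name FastQC, TopHat2 2.0.11, featureCounts, DESeq2 and mm10, with no order; annotation, strand and the treatment of reads with several matches are not given in the sources used here. The authors deposited raw counts per gene and library, and a signal made by dividing counts by 1 size factor per library. Their own comparison (log2 fold change, a test score, p-values and the fold as a ratio, as deposited) was not used. No column belonged to another sample.

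Counts were compared with edgeR 4.0.16 in R 4.3.3 (expression filter, TMM, quasi-likelihood test, prior count 0.125, no covariates, Benjamini-Hochberg over 13084 genes), and a script was tested on simulated counts. The study's thresholds are an adjusted p under 0.05, a fold change over 1.5 and a control signal over 1. CPM are counts over the TMM library size. The SE was computed as the size of the log2 value divided by the root of F. Log2 ratios used a pseudocount of 0.5, and the exact test all 210 splits. A share of 3 counts is 4.23e-05% to 5.26e-05% of a library. Such limits cover counting error only. Each sample is taken as 1 mouse. Length and GC trends (longest GENCODE M21 transcript, lowess span 0.4) were removed through offsets. Windows were compared with blastn 2.17.0. DESeq2 1.42.0 and limma 3.58.1 were among 30 alternative fits. The members, lists and tests were chosen with earlier results of these data known. Named genes were a list of 21 members, the 6 largest rises and falls at an adjusted p under 0.05, and in each pathway list the 3 smallest adjusted p per direction. Some genes enter the fits, counts and medians and are not reported here by name.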

Additional observations from a re-analysis of the deposited data

Results flagged for a closer look

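Of 160 groups of values tested for 1 library far from the rest of its group, over the reported members with reads and the shares, 6 stood out, and chance gives about 8.0. Rn45s in mutant M3 was at 38.9% against 0.268% to 0.582% in the others. Rpsa reached 17.3 CPM in mutant M2, with the rest between 9.09 and 11.5, and Rps7 was at 4.66 in mutant M2 against 1.67 to 2.72. The others rest on few reads, with Rpl36 at 2.18 CPM in mutant M2 against 0.418 to 0.857, Rps13 at 1.74 in mutant F1 against 0.343 to 0.697 and Rpl39l at 0.533 in mutant F2 against at most 0.146. No explanation was tested.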

How the results depend on the processing

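The number of members higher at an adjusted p under 0.05 was 23. It was within 1.5 times of that under all changes of scaling, filter, prior count and test, and with the GC trend removed. With the labelled sex as a covariate it was 22. That fit cannot adjust for sex, since Xist and Ddx3y of the controls went against their labelled sex, and nothing about sex is drawn from it. The number was 6 with the length trend removed (with 1 lower) and 3 at an adjusted p under 0.01. With only the mice labelled female or male it was 6 (9.84%, against 10.7% of all tested genes) and 5 (8.47% against 6.13%). Without mutants M2 and M3 (chosen after seeing the data) it was 9 (15.5% against 12.2%). Among the 13 tested members with under 50% of windows copied (also chosen after seeing the data) it was 7 (53.85% against 16.3%), of which 0 passed the fold threshold as well. With each mouse left out it went from 8 to 26; 8 was without control F1, and it was 13 without control M1, 14 without control M2 and 15 without mutant M3. The number past all thresholds, 3, was 1 with the length trend removed, 5 with the GC trend removed, 1 at an adjusted p under 0.01, 1 at a fold over 2 and 23 at a fold over 1.2, and from 2 to 6 with each mouse left out (6 without control F2, mutant F1 or mutant F2, and 5 without mutant F3). The median log2 fold change of 0.34 was 0.14 with the length trend removed and otherwise between 0.22 and 0.42 outside the block fits. The log2 ratio of mean summed shares, 0.41, went from 0.35 to 0.47 with each mouse left out. Fewer mice were fitted with 1 labelled sex or without 2 mice, and since Xist and Ddx3y of the controls went against their labelled sex, sex and group cannot be told apart in the fits of 1 labelled sex.

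The replicate numbers did not pair the mice, since same-numbered mice are different animals and the mean correlation of their deviations was -0.00712 over 4 pairs, and 0.00129 over 20 other pairs. With the replicate block 13 of 59 members were higher (against 13.4% of all tested genes), and with the block and the length trend removed together 4 were higher and 1 lower, 1 lower past all thresholds, at a median of 0.13. Rps18 passed the test with the block (adjusted p = 0.0211, edgeR) and with both (0.0388).

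The lists of the translation pathway had 29 genes higher and 5 lower. They had 9 lower with the GC trend removed, 8 higher and 3 lower with mice labelled female only, 7 and 1 with mice labelled male only, 12 higher without mutants M2 and M3, 11 and 3 at an adjusted p under 0.01, and from 18 to 29 higher and 5 to 8 lower with each mouse left out (18 without control M2, 8 lower without mutant F1). The difference of large and small subunit medians, -0.010, turned to 0.017 with a mean count of at least 50, 0.063 with mice labelled female only and 0.056 without a filter, and went from -0.0548 to 0.0638 with each mouse left out. The group difference in the log2 ratio of Rpl3l to Rpl3 went from -1.515 (without mutant M2) to -0.741 with each mouse left out. It passed the exact permutation test without mutant M2, a library singled out after its value had been seen.

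Of 50 genes followed, the directions that turned were of genes that had not passed the test. With the length trend removed they were Rpl10 (-0.23), Rpl11 (-0.092), Rplp0 (-0.084), Rplp2 (-0.096) and Rps6 (-0.011), and with the block added Rpl10 (-0.36), Rpl11 (-0.020), Rplp0 (-0.097), Rplp2 (-0.13) and Rpl8 (-0.0062). With the replicate block alone they were Rpl10 (-0.15) and Rps3a (0.18), with mice labelled female only Rpl5 (0.026), Rplp0 (-0.28), Rps18 (-0.061) and Rps6 (-0.21), with mice labelled male only Rps3a (0.53), under quantile normalization Rpl10 (-0.028) and without mutants M2 and M3 Rpl10 (-0.12). With each mouse left out, Rpl10 went from -0.0699 to 0.144 and Rps3a from -0.937 to 0.257. The cause was not tested.

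The 22 members that were not tested had at most 16 reads in any library.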
